A study of Mus musculus with 24 samples.

Results

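The transcripts of p53 and 8 genes around it were followed across 6 groups of mouse blood progenitors. The 9 genes were the entries of the deposited gene count table named Trp53, Mdm2, Mdm4, Cdkn1a, Ccng1, Trp53inp1, Sesn2, Zmat3 and Phlda3, out of 55487 distinct gene identifiers. Trp53 encodes p53, Mdm2 and Mdm4 encode its inhibitors, and the other genes are direct p53 targets outside the BCL2 family. All 9 passed the filter on low counts and were tested among 23059 genes.

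p53 is a transcription factor held at a low level in unstressed cells, because MDM2 marks it for degradation and MDM4 (MDMX) blocks its activation domain. DNA damage or oncogene signalling relieves this hold, mainly on the protein, and p53 then activates genes for cell cycle arrest, DNA repair, metabolism and apoptosis, Mdm2 among them, which closes a feedback loop. In haematopoietic stem cells p53 is known for its part in quiescence and in the response to radiation. The mRNA of Trp53 therefore measures neither the amount nor the activity of the protein.

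The cells were labelled LSK, the lineage-negative, Sca-1-positive, KIT-positive fraction that holds haematopoietic stem cells and multipotent progenitors, while the design text gives the sort as lineage-negative and KIT-positive. ME stands for the human MLL::ENL fusion oncogene, carried as a Tet-off transgene that is switched on at a chosen age. The 2 groups at birth, postnatal day 0 (P0), were taken from liver: wild-type (P0 WT) and ME switched on at E10.5, a day of embryonic development (P0 ME). At postnatal day 28 (P28) they came from bone marrow, in 4 groups: wild-type (P28 WT), ME induced at E10.5 (P28 E10.5-induced), ME induced at P0 (P28 P0-induced), and a group labelled RLT Vav Txp with ME induced at E10.5, whose name the labels do not expand. Each group had 4 libraries, described as biological replicates. The labels do not state the driver of the Tet transactivator or the cells in which it is active. Only the RLT Vav Txp labels carry the word Vav, without saying what it refers to. Age and tissue changed together, so liver at P0 against marrow at P28 is a joint comparison of both. Wild-type and ME mice are given without strain or litter.

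Libraries held 31233688 to 89774511 counts on genes. The summed level of 5 stem and progenitor genes (Kit, Ly6a, Cd34, Flt3 and Mecom) was 1576 to 3803 CPM (counts per 1000000 of the scaled library total) at P0, 3347 to 4223 in the first 3 groups at P28, and 1372 to 2357 in RLT Vav Txp. The P0 libraries numbered 1, 1 of WT and 1 of ME, stood apart from the other P0 libraries: their summed macrophage markers were 128 and 121 CPM, against up to 1358 and up to 1539.5 CPM in the rest of their groups, and their summed erythroid markers were 657 and 269 CPM, against up to 17832 and up to 14028 CPM. Calls that use the P0 libraries are therefore also given without these 2. RLT Vav Txp libraries carried 726 to 3079 CPM of macrophage markers, against 54.7 to 121 CPM in the other P28 libraries. They also carried more summed erythroid markers (1121 to 2409 against 179.5 to 764 CPM), neutrophil markers (2009 to 6488 against 656 to 1775 CPM) and mast cell and basophil markers (80.6 to 182 against 7.87 to 43.5 CPM). Summed B-lymphoid markers were 351, 118, 87.1 and 55.2 CPM in RLT Vav Txp libraries 1 to 4, against 224 to 590 CPM in the other P28 libraries. Against P28 E10.5-induced cells 5 of 7 B-lymphoid markers were called higher and 1 lower, beside 17.9% of all genes called. Against P28 WT and P28 P0-induced cells 0 of 7 were called. The part of these cell types in the RLT Vav Txp results that follow was not tested.

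A promoter of each of 2 members holds a close match to the p53 response element. These promoters are shown because this is the sequence that p53 reads at its targets. The element is a pair of 10-base half-sites. It was searched by its consensus, with no spacer and at most 2 mismatches in 20 bases, in RefSeq promoter windows of the GRCm38.p6 assembly, from 250 bases before to 50 bases after the transcription start. The consensus is its own reverse complement, so 1 scan covers both strands. Windows were given for 7 of the 9 members. Capitals mark the match, and each sequence runs 5′ to 3′ along the gene's strand. The first window, of Cdkn1a, is chr17:29090729-29091028 on the plus strand. The next, of Ccng1, is chr11:40755237-40755536 on the minus strand. The last, of Phlda3, is chr1:135765835-135766134 on the plus strand and is shown without a match, because Phlda3 passed the test in more comparisons than any other member.
Cdkn1a: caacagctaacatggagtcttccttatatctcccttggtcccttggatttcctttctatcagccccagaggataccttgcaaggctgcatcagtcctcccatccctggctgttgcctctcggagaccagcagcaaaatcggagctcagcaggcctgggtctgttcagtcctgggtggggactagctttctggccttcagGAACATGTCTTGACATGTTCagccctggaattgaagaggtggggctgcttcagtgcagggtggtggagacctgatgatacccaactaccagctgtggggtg
Ccng1: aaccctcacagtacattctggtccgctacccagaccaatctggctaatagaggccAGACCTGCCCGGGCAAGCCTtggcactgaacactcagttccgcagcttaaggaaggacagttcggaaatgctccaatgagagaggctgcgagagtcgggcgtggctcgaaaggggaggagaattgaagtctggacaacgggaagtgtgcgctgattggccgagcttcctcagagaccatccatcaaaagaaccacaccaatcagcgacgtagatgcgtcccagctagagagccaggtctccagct
Phlda3: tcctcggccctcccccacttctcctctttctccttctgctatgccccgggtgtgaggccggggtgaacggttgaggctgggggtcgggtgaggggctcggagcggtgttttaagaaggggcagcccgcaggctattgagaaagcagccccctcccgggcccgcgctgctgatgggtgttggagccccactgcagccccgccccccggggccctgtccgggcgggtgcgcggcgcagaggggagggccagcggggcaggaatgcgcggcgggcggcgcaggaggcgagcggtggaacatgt

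The Cdkn1a match, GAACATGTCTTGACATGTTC, has 1 mismatch to the consensus and lies 51 to 32 bases before an annotated start of the gene (GRCm38 chromosome 17, 29090928 to 29090947). The Ccng1 match, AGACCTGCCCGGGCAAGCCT, also has 1 mismatch and lies 195 to 176 bases before the start (chromosome 11, 40755462 to 40755481). A further Cdkn1a window, chr17:29093519-29093818 at another annotated start, had at least 5 mismatches at every position and no match. Of 32817 promoter windows of this length, 261 (0.795%) held a match with at most 2 mismatches and 29 (0.0884%) a match with at most 1. Phlda3 had at least 5 mismatches at every position where a full element fitted inside its window. That window ends in gaacatgt, the letters that open the Cdkn1a match. An element running past this edge was not scored, so the scan cannot say whether Phlda3 has a match there. These matches describe letters only, since no binding of p53 was measured, and the known response elements of several target genes lie in introns, outside these windows.

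The clearest pattern among the 9 genes was in Phlda3, a target whose small protein restrains AKT signalling. It fell in RLT Vav Txp against each of the other P28 groups, and it was higher in P28 marrow than in P0 liver in both WT and ME. Trp53 mRNA was higher in P28 E10.5-induced cells than in P0 ME cells, and lower in RLT Vav Txp than in P28 E10.5-induced cells. Cdkn1a, which encodes the cell cycle inhibitor p21, was lower at P28 than at P0 in WT. In ME it was also called lower, but that difference rested on P0 ME library 2. Zmat3, a low-level RNA-binding target, was lower in P28 E10.5-induced cells than in P28 WT. Mdm2, Mdm4, Ccng1, Trp53inp1 and Sesn2 passed the edgeR test in none of the 10 comparisons, although each passed in some under another tool or setting. In bulk libraries such as these, fewer cells of a type and less RNA per cell cannot be told apart.

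**Figure D1:**
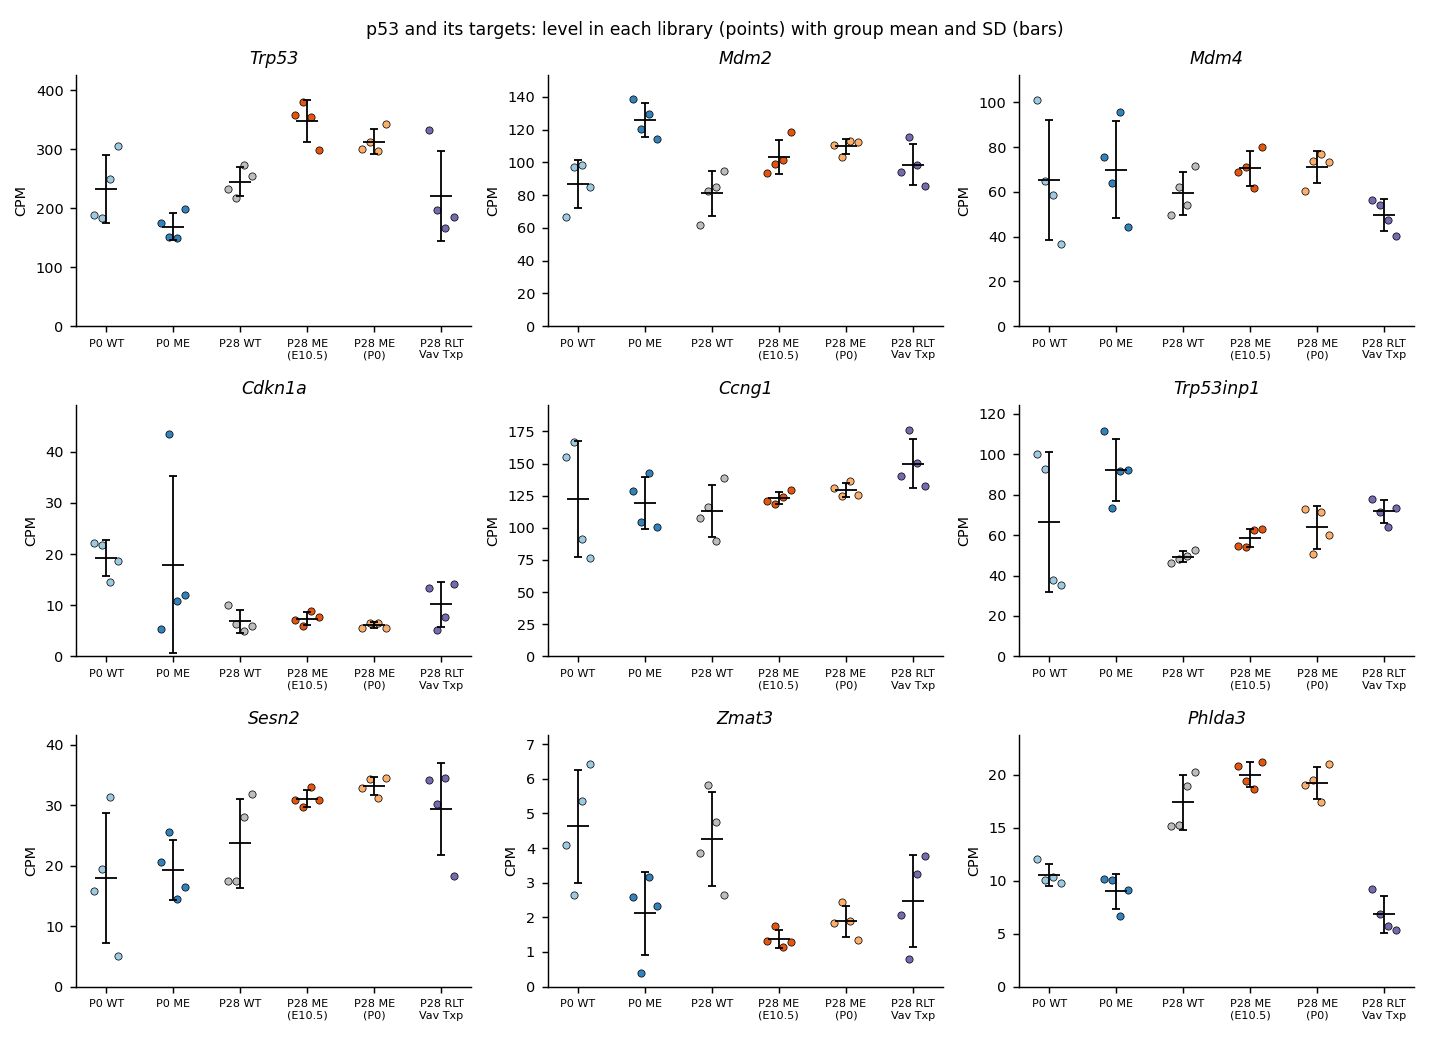
Levels of the 9 genes in CPM (vertical axes, each starting at 0) in every library (points), by group, with the group mean and SD (bars). The RLT Vav Txp libraries sit between 5.36 and 9.25 CPM for Phlda3, below every other P28 library.

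Per kilobase of exon, over all 24 libraries, Trp53 had the highest mean level of the 9 genes at 62.9 CPM per kb. It was followed by Ccng1 at 35.9, Mdm2 at 19.8, Trp53inp1 at 10.4, Phlda3 at 8.86, Sesn2 at 7.41, Mdm4 at 4.34, Cdkn1a at 3.17 and Zmat3 at 0.244 CPM per kb. The gene with the steepest differences between groups was Zmat3, whose highest group mean was 3.36 times its lowest. This ratio was 3.15 for Cdkn1a, 2.94 for Phlda3, 2.06 for Trp53, 1.87 for Trp53inp1, 1.85 for Sesn2, 1.55 for Mdm2, 1.43 for Mdm4 and 1.33 for Ccng1. The inhibitors and Ccng1 were thus the most even in level, and a pair of low-level targets the least.

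Trp53 itself (ENSMUSG00000059552, chromosome 11, 69580359 to 69591873, plus strand) was highest in the 2 P28 groups with ME that are not RLT Vav Txp. Its levels were 189, 184, 249 and 305 CPM in P0 WT and 175, 152, 149 and 198 CPM in P0 ME. They were 233, 217, 273 and 255 CPM in P28 WT, 359, 380.4, 354 and 298 CPM in P28 E10.5-induced, and 301, 311, 296 and 343 CPM in P28 P0-induced cells. In RLT Vav Txp they were 333, 197, 167 and 184 CPM, so that 1 library lay among the other ME groups at P28 and 3 lay below every P28 WT library. The group means ran from 348 ± 35.2 CPM (SD, n = 4) in P28 E10.5-induced through 313 ± 21.0 in P28 P0-induced, 244 ± 24.5 in P28 WT, 232 ± 57.4 in P0 WT and 220.4 ± 76.1 in RLT Vav Txp to 168 ± 22.8 in P0 ME. Neighbours in this order overlapped except P28 P0-induced and P28 WT. Its processed pseudogene, Trp53-ps, was counted at 1.14% to 5.00% of the Trp53 level.

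Trp53 rose from P0 ME to P28 E10.5-induced cells by 1.05 on the log2 scale (SE 0.19, 95% interval 0.66 to 1.43, edgeR adjusted p = 0.000451), and all 4 later libraries lay above all 4 earlier ones. Without the P0 libraries numbered 1 the difference was 1.07 (edgeR adjusted p = 0.000534). Against the other P28 group with E10.5 induction, Trp53 was lower in RLT Vav Txp. It fell by 0.66 on the log2 scale from P28 E10.5-induced cells (SE 0.19, 95% interval -1.04 to -0.28, edgeR adjusted p = 0.016), although the groups overlapped through RLT Vav Txp library 1. That call held without library 1, where the difference was -0.93. It was lost without P28 E10.5-induced library 2 (edgeR adjusted p = 0.0508) and without RLT Vav Txp library 2 (0.0541), 3 (0.0741) or 4 (0.099). LSK markers were lower, and macrophage, erythroid, neutrophil and mast cell markers higher, in the same RLT Vav Txp libraries.

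Against wild-type cells of the same age, Trp53 passed the edgeR test on all 24 libraries in no ME group. The difference was -0.46 at P0 (95% interval -0.84 to -0.08, edgeR adjusted p = 0.25), or -0.57 without the P0 libraries numbered 1 (edgeR adjusted p = 0.17). It was 0.51 for P28 E10.5-induced (95% interval 0.13 to 0.89, edgeR adjusted p = 0.0711) and 0.36 for P28 P0-induced cells (95% interval -0.02 to 0.74, edgeR adjusted p = 0.283). With limma the adjusted p was 0.000568 and 0.0151 for these 2 differences, where limma called 6492 and 4998 of all 23059 genes. EdgeR on all 24 libraries called 2827 and 362 of them. The fit of the compared groups alone called 6296 of 18491 and 5196 of 18601 genes. In that fit the edgeR adjusted p was 0.00379 and 0.0172. On the 20 numbered libraries, without RLT Vav Txp, it was 0.0313 for P28 E10.5-induced cells, or 0.0248 with a replicate block. The P28 E10.5-induced difference passed in 4 of 9 other settings and the P28 P0-induced difference in 2 of 9, and neither passed with 1 library left out. In both P28 groups all 4 ME libraries lay above all 4 WT libraries. For RLT Vav Txp the difference from P28 WT was -0.15 (95% interval -0.53 to 0.23, edgeR adjusted p = 0.81). The 3 P28 comparisons share the same P28 WT libraries and are not independent. The difference between the ME effect of E10.5 induction at P28 and at P0 was 0.97 for Trp53 (SE 0.26, 95% interval 0.43 to 1.51, unadjusted p = 0.00102, edgeR adjusted p = 0.0699), or 1.08 (edgeR adjusted p = 0.0564) without the P0 libraries numbered 1. It passed the threshold with DESeq2 (adjusted p = 0.04) and with limma (adjusted p = 0.0384), and in edgeR without P0 WT library 1 (adjusted p = 0.0482). Over all 23059 genes this difference was called for 166 in edgeR, 782 in DESeq2 and 644 in limma.

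Mdm2 (ENSMUSG00000020184, chromosome 10, 117688875 to 117710758, minus strand), the E3 ligase for p53 and itself a target, was highest in P0 ME. There it stood at 138, 121, 129.6 and 115 CPM, against 66.4, 97.0, 98.2 and 84.8 CPM in P0 WT, and the 2 groups did not overlap. It was 61.6, 82.8, 85.2 and 94.5 CPM in P28 WT, 93.8, 99.1, 102 and 118 CPM in P28 E10.5-induced, 111, 103, 113 and 113 CPM in P28 P0-induced, and 94.2, 115, 98.5 and 85.6 CPM in RLT Vav Txp. The difference from WT was 0.54 at P0 (SE 0.15, 95% interval 0.23 to 0.84, edgeR adjusted p = 0.0896) and 0.44 for P28 P0-induced cells (SE 0.15, 95% interval 0.13 to 0.74, edgeR adjusted p = 0.0978). Neither passed in edgeR, while limma gave an adjusted p of 0.00455 for the second and called 4998 of all 23059 genes there. At P0, DESeq2 gave an adjusted p of 0.0109 and called 802 of all 23059 genes. Without the P0 libraries numbered 1 the P0 difference was 0.38 (edgeR adjusted p = 0.21). At P0 the means of Mdm2 were 126 ± 10.4 in ME and 86.6 ± 14.8 CPM in WT (SD, n = 4), while those of Trp53 stood in the opposite order.

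Mdm4 (ENSMUSG00000054387, chromosome 1, 132959484 to 133030561, minus strand) had overlapping libraries in every pair of neighbouring groups. Its group means lay between 49.6 ± 7.21 CPM in RLT Vav Txp and 71.1 ± 7.22 CPM in P28 P0-induced cells (SD, n = 4). The spread was widest in P0 WT, where its libraries stood at 101, 65.0, 58.4 and 36.6 CPM. All 4 RLT Vav Txp libraries, at 40.4 to 56.5 CPM, lay below the 4 P28 E10.5-induced libraries at 61.5 to 80.1 CPM. The difference was -0.51 and did not pass in edgeR (adjusted p = 0.131), but passed in 2 of 7 other settings (lowest adjusted p 0.0266). The gene model Gm29257, which overlaps Mdm4 on the opposite strand, was counted at 2.11% to 23.9% of the Mdm4 level, and the strand setting of the counting is not given in the sources used here.

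Cdkn1a (ENSMUSG00000023067, chromosome 17, 29090976 to 29100727, plus strand) had its highest levels in liver at P0. Its libraries stood at 22.2, 21.7, 14.5 and 18.6 CPM in P0 WT, and at 5.31, 43.4, 10.9 and 12.0 CPM in P0 ME, where 1 library was far above the other 3. The levels were 10.1, 6.25, 5.00 and 5.97 CPM in P28 WT, 7.06, 5.93, 8.78 and 7.78 CPM in P28 E10.5-induced, and 5.63, 6.61, 6.60 and 5.56 CPM in P28 P0-induced cells. RLT Vav Txp was more uneven, with 13.4, 5.18, 7.73 and 14.2 CPM. The 3 other P28 groups had means of 6.10 to 7.39 CPM, which differed by less than the SD of P28 WT (2.24 CPM, n = 4).

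In WT, Cdkn1a fell by 1.50 on the log2 scale from P0 to P28 (SE 0.43, 95% interval -2.39 to -0.60, edgeR adjusted p = 0.0329), with no overlap between the groups. The difference was -1.42 without the P0 libraries numbered 1 (edgeR adjusted p = 0.0221). The call was lost without P0 WT library 1 (edgeR adjusted p = 0.0528) or 2 (0.0802), and without P28 WT library 2 (0.09), 3 (0.104) or 4 (0.0873), as it was on plain library totals (0.0535). In ME induced at E10.5 it fell by 1.28 (SE 0.43, 95% interval -2.16 to -0.39, edgeR adjusted p = 0.04), and here P0 ME library 2, at 43.4 CPM, decided the value. Without that library the difference was -0.35 (edgeR adjusted p = 0.56), and without the P0 libraries numbered 1 it was -1.58 (edgeR adjusted p = 0.00697). With limma the ME difference was -0.80 (adjusted p = 0.084), and the call was also lost in the fit of the compared groups alone (edgeR adjusted p = 0.0985) and with a replicate block (0.0892). The ME call was also lost without P28 E10.5-induced library 1 (edgeR adjusted p = 0.109), 2 (0.112), 3 (0.0671) or 4 (0.075). Immediate early and handling-response genes moved the same way with age, with 7 of 8 lower at P28 in WT and 4 of 8 in ME, and their summed level was 441 to 586 CPM in P0 WT and 170.3 to 199 CPM in P28 WT. In ME the levels overlapped, at 250.1 to 432 CPM at P0 and 205 to 299 CPM at P28. Their part in the Cdkn1a difference was not tested. P0 WT library 1, with few macrophage and erythroid transcripts, had the highest Cdkn1a level of its group, and P0 ME library 1, also with few, had the lowest of its group. P0 WT library 1 also held 3795 CPM of mast cell and basophil markers, against 434 to 868 CPM in the rest of its group. P0 ME library 1 held 40.3 CPM of them, against 205 to 503 CPM in the rest of its group.

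Cdkn1a passed the test in no ME group against WT of the same age. The difference was -0.10 at P0 (95% interval -0.97 to 0.77, edgeR adjusted p = 0.948), and it was 0.28 without the P0 libraries numbered 1 and -1.06 without P0 ME library 2. It was 0.11 for P28 E10.5-induced (95% interval -0.76 to 0.99, edgeR adjusted p = 0.903), -0.16 for P28 P0-induced (95% interval -1.04 to 0.72, edgeR adjusted p = 0.879) and 0.57 for RLT Vav Txp (95% interval -0.31 to 1.45, edgeR adjusted p = 0.615). The overlapping antisense entry 1700023B13Rik was counted at a median of 2.77% of the Cdkn1a level.

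Phlda3 (ENSMUSG00000041801, chromosome 1, 135766119 to 135769136, plus strand) split the libraries into a high and a low set. It stood at 12.0, 10.0, 10.3 and 9.77 CPM in P0 WT and at 10.2, 10.1, 6.61 and 9.11 CPM in P0 ME. It was 15.2, 15.2, 18.9 and 20.2 CPM in P28 WT, 20.8, 19.4, 18.7 and 21.2 CPM in P28 E10.5-induced, and 19.0, 19.4, 17.4 and 21.0 CPM in P28 P0-induced cells. In RLT Vav Txp it was 9.25, 6.86, 5.74 and 5.36 CPM, below every other P28 library and in the range of P0 ME or under it. The 12 remaining P28 libraries all lay above the 8 P0 libraries.

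Compared with P28 WT, RLT Vav Txp had less Phlda3. It fell by 1.35 on the log2 scale (SE 0.22, 95% interval -1.80 to -0.91, edgeR adjusted p = 0.000324). It fell by 1.56 against P28 E10.5-induced (SE 0.22, 95% interval -2.002 to -1.108, edgeR adjusted p = 4.16e-05) and by 1.50 against P28 P0-induced cells (SE 0.22, 95% interval -1.94 to -1.05, edgeR adjusted p = 8.32e-05). These 3 comparisons share the RLT Vav Txp libraries. Each passed in all 7 other settings tried for it and without each single library in turn. Macrophage markers moved in the opposite direction in these libraries, with 8 of 9 higher than in P28 WT and 9 of 9 higher than in P28 E10.5-induced cells, and none of the 9 was at 0 throughout a group. Their part in the Phlda3 difference was not tested. Among the P0 libraries, the 2 with few macrophage transcripts had Phlda3 at 12.0 and 10.2 CPM, and the other 6, with more, had 6.61 to 10.3 CPM.

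With age and tissue, Phlda3 rose by 0.72 in WT (SE 0.21, 95% interval 0.28 to 1.16, edgeR adjusted p = 0.0361) and by 1.15 in ME induced at E10.5 (SE 0.22, 95% interval 0.71 to 1.60, edgeR adjusted p = 0.00067). Without the P0 libraries numbered 1 the values were 0.79 (edgeR adjusted p = 0.0286) and 1.22 (edgeR adjusted p = 0.000739). The WT call was lost without P0 WT library 2 (edgeR adjusted p = 0.08), 3 (0.0575) or 4 (0.0794) and without P28 WT library 3 (0.099) or 4 (0.113), and the ME call held without each library in turn. The WT call was also lost with limma (adjusted p = 0.0781) and with no filter on low counts (edgeR adjusted p = 0.144). Phlda3 and Cdkn1a, both p53 targets, thus stood in opposite order between P0 and P28 in WT. In ME their fitted differences were also opposite in sign. There the Cdkn1a groups overlapped, and without P0 ME library 2 the Cdkn1a difference was -0.35 (edgeR adjusted p = 0.56). Macrophage, erythroid and neutrophil markers were lower at P28, with 6 of 9, 7 of 8 and 7 of 8 called in WT, and their part in either gene was not tested.

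**Figure D2:**
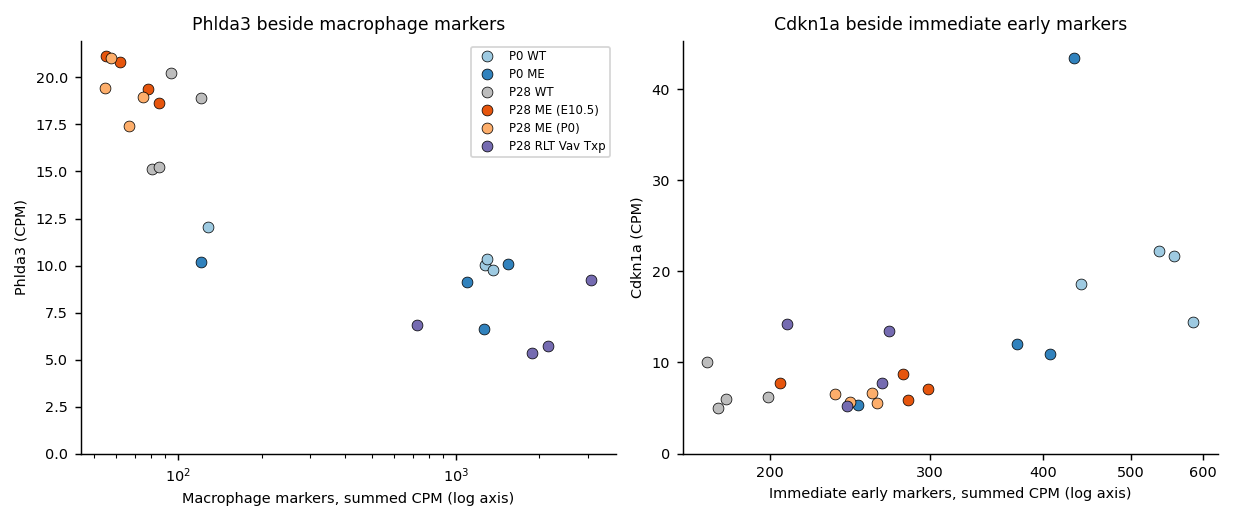
Left, Phlda3 (CPM, vertical axis) against the summed CPM of the macrophage markers (log axis). Right, Cdkn1a against the summed CPM of the immediate early genes (log axis). Each point is 1 of the 24 libraries, coloured by group; the P0 libraries numbered 1 lie at 128 and 121 CPM of macrophage markers with Phlda3 at 12.0 and 10.2 CPM.

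Zmat3 (ENSMUSG00000027663, chromosome 3, 32334792 to 32366014, minus strand) encodes a zinc finger protein that acts on RNA splicing and stability downstream of p53. Its levels were low throughout, from 0.405 CPM, a raw count of 24, to 6.43 CPM. It was 3.86, 5.82, 4.74 and 2.64 CPM in P28 WT and 1.33, 1.75, 1.16 and 1.28 CPM in P28 E10.5-induced cells, with no overlap. It was 1.83, 2.45, 1.91 and 1.34 CPM in P28 P0-induced cells, which also lay below all WT libraries. In RLT Vav Txp it spread from 0.785 to 3.78 CPM, in P0 WT from 2.64 to 6.43 CPM and in P0 ME from 0.405 to 3.16 CPM. Zmat3 fell by 1.63 on the log2 scale in P28 E10.5-induced cells against P28 WT (SE 0.54, 95% interval -2.74 to -0.52, edgeR adjusted p = 0.0481). This call sat at the threshold: it was kept without P28 WT library 4 and lost without each of the other 7 libraries, with edgeR adjusted p from 0.0439 to 0.138 over the 8 fits. It was also lost with no filter on low counts (edgeR adjusted p = 0.116) and with a replicate block on the 20 numbered libraries (0.0542), while the same 20 libraries without the block kept it (0.0345). Between P28 P0-induced and P28 E10.5-induced cells Zmat3 had the lowest p of the 9, with a difference of 0.45 (SE 0.53, 95% interval -0.64 to 1.54, edgeR adjusted p = 1).

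The other targets passed the edgeR test in no comparison. From P0 ME to P28 E10.5-induced cells the Trp53inp1 difference was -0.65 (edgeR adjusted p = 0.0569) with no overlap of the groups, and it passed in 5 of 10 other settings (lowest adjusted p 0.00815). The Sesn2 difference there was 0.69 (edgeR adjusted p = 0.149) and passed in 2 of 10. Ccng1 (cyclin G1, ENSMUSG00000020326, chromosome 11, 40748552 to 40755311, minus strand), whose product recruits a phosphatase to MDM2, was the most even of the 9 genes. Its group means lay between 113 ± 20.3 CPM in P28 WT and 150.0 ± 19.1 CPM in RLT Vav Txp (SD, n = 4), and its libraries spread most in P0 WT, at 156, 167, 91.1 and 76.8 CPM. All 4 RLT Vav Txp libraries, at 133 to 176 CPM, lay above the 4 P28 E10.5-induced libraries, at 118 to 129 CPM, a difference of 0.29 (edgeR adjusted p = 0.331) that passed in 2 of 7 other settings. Trp53inp1 (ENSMUSG00000028211, chromosome 4, 11156431 to 11174379, plus strand) encodes a stress protein that promotes autophagy and the p53 response. It stood lowest and most evenly in P28 WT, at 46.3 to 52.7 CPM, and each ME group at P28 but P28 P0-induced lay wholly above that, at 54.4 to 62.9 CPM for P28 E10.5-induced and 64.2 to 78.1 CPM for RLT Vav Txp. In P0 WT, libraries 1 and 2 held 100.2 and 92.9 CPM of Trp53inp1 and libraries 3 and 4 held 37.6 and 35.6 CPM. Sesn2 (sestrin 2, ENSMUSG00000028893, chromosome 4, 132492032 to 132510501, minus strand), an inhibitor of mTORC1 that also answers to ATF4, ranged from 5.09 to 31.3 CPM in P0 WT and from 31.3 to 34.5 CPM in P28 P0-induced cells. Its P0 group means were 17.9 ± 10.8 CPM in WT and 19.2 ± 4.92 CPM in ME, and its P28 group means lay between 23.7 ± 7.40 and 33.2 ± 1.50 CPM.

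**Figure D3:**
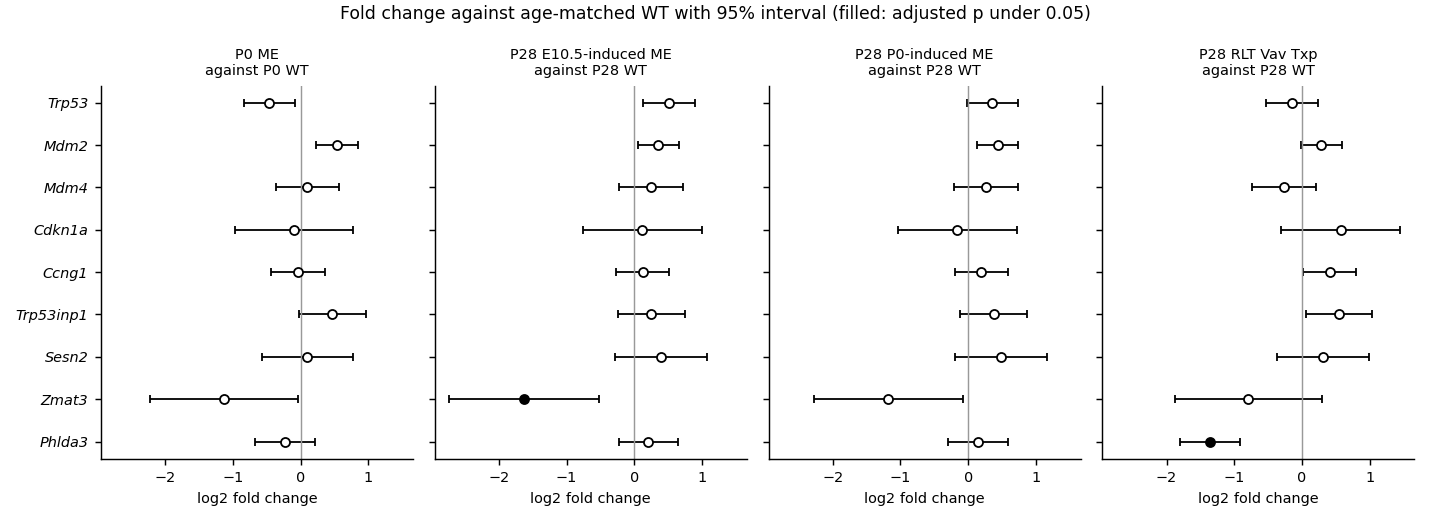
Differences of the 9 genes from WT of the same age (log2 fold change, horizontal axis, points, with 95% intervals as bars) for the 4 groups with ME; filled points passed edgeR's test at an adjusted p under 0.05. Zmat3 at -1.63 in P28 E10.5-induced cells and Phlda3 at -1.35 in RLT Vav Txp are the 2 filled points.

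Counted over the 9 genes, the comparison of ME with WT at P0 gave 0 calls in edgeR, beside 0.642% of all genes tested. DESeq2 called 1 (Mdm2) and limma 0, beside 802 and 16 of all 23059 genes. In edgeR 3 of the 9 had an unadjusted p under 0.05, beside 14.1% of all genes. Only Mdm2 had groups that did not overlap, beside 3.74% of all genes. For P28 E10.5-induced against P28 WT, 1 of 9 was called (Zmat3, lower), beside 12.3% of all genes called and 4.44% called lower. A single call is 11.1% of the 9, near the share over all genes, so that this count says nothing particular about them. The groups did not overlap for 3 of 9 (Trp53, Trp53inp1 and Zmat3), beside 28.2% of all genes. The difference was above 0 for 8 of the 9, or for 6 when scaled to plain library totals, and their median was 0.24, against -0.10 over all genes, or 0.12 against -0.23 on plain totals.

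For P28 P0-induced against P28 WT, edgeR called 0 of 9, beside 1.57% of all genes. DESeq2 called 0 and limma 4, beside 1872 and 4998 of all 23059 genes. In edgeR 2 of the 9 had an unadjusted p under 0.05, beside 20.2% of all genes. For 3 (Trp53, Mdm2 and Zmat3) the groups did not overlap, beside 24.8%. The median of the 9 was 0.26, against -0.09 over all genes, and 7 of the 9 lay above 0. For RLT Vav Txp against P28 WT, 1 of 9 was called (Phlda3, lower), beside 4.12% of all genes called and 1.48% called lower, and 2 had groups that did not overlap, beside 11.5%.

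Between the ME groups at P28, E10.5 and P0 induction gave 0 calls among the 9 in edgeR, DESeq2 and limma, beside 0.0477% of all genes in edgeR. DESeq2 called 92 and limma 2326 of all 23059 genes. None of the members (0 of 9) had an unadjusted p under 0.05 in edgeR, beside 4.33% of all genes, or groups that did not overlap, beside 11.8%. RLT Vav Txp against P28 E10.5-induced cells gave 2 of 9 (Trp53 and Phlda3, both lower), beside 17.9% of all genes called and 9.38% called lower. The groups did not overlap for 4 of 9 (Mdm4, Ccng1, Trp53inp1 and Phlda3), beside 25.7% of all genes. RLT Vav Txp against P28 P0-induced cells gave 1 of 9 (Phlda3, lower), beside 11.7% of all genes called and 4.9% called lower, and 2 had groups that did not overlap, beside 24.3%.

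From P0 to P28, 2 of 9 were called in WT (Phlda3 higher, Cdkn1a lower), beside 7.68% of all genes called, 3.12% higher and 4.56% lower, and these 2 were the ones whose groups did not overlap, beside 9.27%. In ME induced at E10.5, 3 of 9 were called (Trp53 and Phlda3 higher, Cdkn1a lower), beside 18.2% of all genes, with 9.79% of all genes higher and 8.45% lower, and 4 had groups that did not overlap, beside 25.4%. The ME effect at P28 minus that at P0 gave 0 calls in edgeR, beside 0.72% of all genes. DESeq2 and limma called 1 each, beside 782 and 644 of all 23059 genes. Only Trp53 had an unadjusted p under 0.05 in this test of the difference, beside 16.5% of all genes.

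The wider pathway was read from 33 other p53 targets and 18 regulators of p53, of which 33 and 16 passed the filter. In P28 E10.5-induced cells against P28 WT, 5 of the 33 targets (15.2%) rose and 0 fell, beside 12.3% of all genes called. On plain library totals 1 was higher and 2 lower. The median difference of the list was 0.11, against -0.10 over all genes (-0.02 and -0.23 on plain library totals). Apaf1, the scaffold of the apoptosome, rose from 26.3 ± 2.50 to 60.4 ± 2.42 CPM (SD, n = 4, log2 difference 1.20, edgeR adjusted p = 0.00484). Xpc, a DNA damage sensor of nucleotide excision repair, rose by 0.76 (edgeR adjusted p = 0.00994). Ppm1d, the WIP1 phosphatase that turns the p53 response off, rose by 0.82 (edgeR adjusted p = 0.0242), and Pml, the scaffold of nuclear bodies, by 0.76 (edgeR adjusted p = 0.0405). The list held both promoters of apoptosis and brakes on p53. Except for Apaf1, these calls depended on the scaling and on single libraries. On plain library totals Xpc, Ppm1d and Pml were lost (edgeR adjusted p = 0.0536, 0.0746 and 0.14), and Pml also with RLE factors (0.0663), no filter (0.0792) or the stricter filter (0.0545). Xpc was lost without P28 WT library 1 (edgeR adjusted p = 0.0538) or 2 (0.0735), Ppm1d without P28 WT library 1, 2 or 3 or P28 E10.5-induced library 1 or 3 (0.0595 to 0.128), and Pml without any of P28 WT libraries 1 to 3 or P28 E10.5-induced libraries 1 to 3 (0.0689 to 0.157).

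Among regulators, 5 of 16 (31.2%) rose and 0 fell in the same comparison, beside 12.3% of all genes called, with a median of 0.43. With plain library totals, RLE factors or no filter 3 were called, and Hipk2 was lost (edgeR adjusted p = 0.078, 0.0512 and 0.0948). Atm, the kinase that signals double-strand breaks to p53, rose from 16.3 ± 3.61 to 42.8 ± 7.25 CPM (SD, n = 4, log2 difference 1.39, edgeR adjusted p = 0.00499). Ep300, an acetyltransferase and coactivator of p53, rose by 0.96 (edgeR adjusted p = 0.00863), Usp7, which removes ubiquitin from MDM2 and p53, by 0.91 (edgeR adjusted p = 0.0104), and the p53 kinase Hipk2 by 0.67 (edgeR adjusted p = 0.0277). Leaving out P28 WT library 2 ended the calls of Ep300 (edgeR adjusted p = 0.0508), Usp7 (0.0636) and Hipk2 (0.181), leaving out P28 WT library 1 those of Usp7 (0.0578) and Hipk2 (0.161), and leaving out P28 E10.5-induced library 2 or 3 that of Hipk2 (0.053 and 0.134). In P28 P0-induced cells against P28 WT, 0 of 33 targets were called in edgeR, beside 1.57% of all genes. DESeq2 called 3 of the 33 and limma 8, beside 1872 and 4998 of all 23059 genes. In edgeR 8 of the 33 had an unadjusted p under 0.05, beside 20.2% of all genes. Of the regulators 1 of 16 rose there, beside 1.57% of all genes called: Ep300 by 0.88 (edgeR adjusted p = 0.0492). It was lost without any 1 of the libraries but P28 WT library 4 (0.122 to 0.198), and with RLE factors (0.0584), plain totals (0.0696) or no filter (0.0527).

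**Figure D4:**
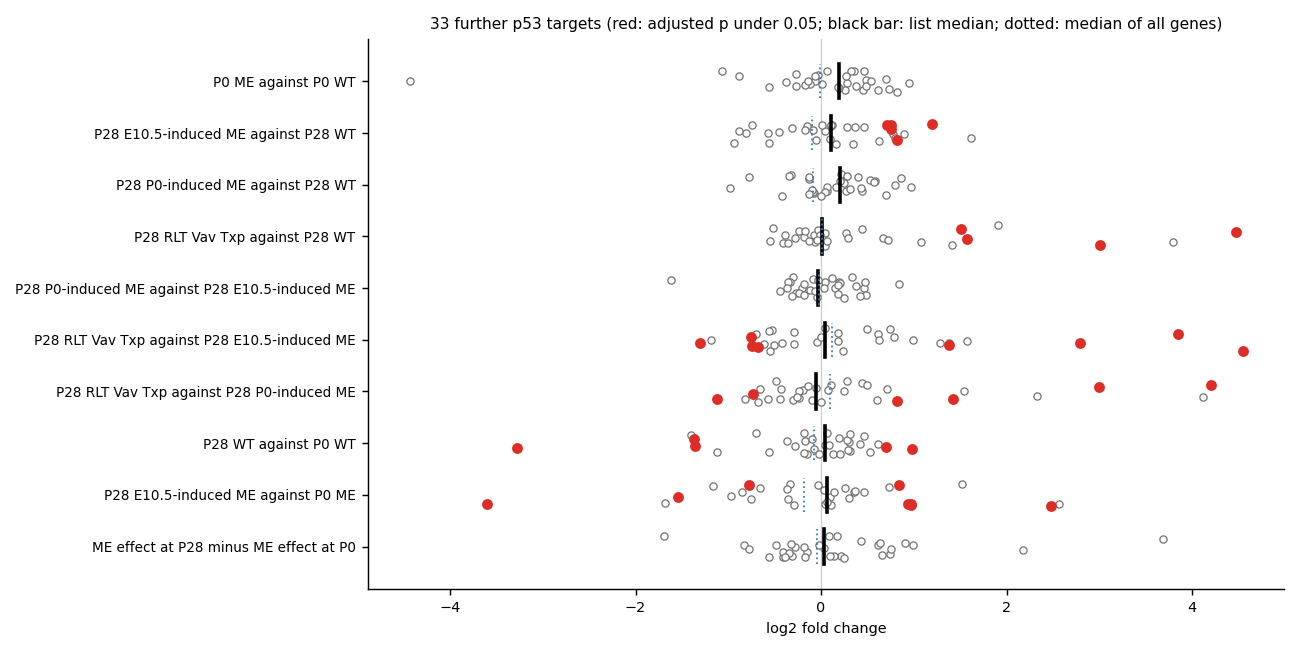
Differences (log2 fold change, horizontal axis) of the 33 further p53 targets in each of the 10 comparisons, 1 point a gene, with called genes filled in red, the list median as a black bar and the median over all genes as a dotted line. The list medians stay near 0 in all 10, while single targets reach far out, such as Plk2 at 4.47 in RLT Vav Txp against P28 WT.

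Single targets in RLT Vav Txp stood far from the rest of the list. Against P28 WT 4 of 33 (12.1%) rose and 0 fell, beside 4.12% of all genes called: Plk2, a polo-like kinase, from 0.839 ± 0.261 to 18.8 ± 8.29 CPM (SD, n = 4, log2 difference 4.47, edgeR adjusted p = 5.34e-05), Ddit4 (REDD1, an mTORC1 inhibitor) by 1.51 (edgeR adjusted p = 0.00312), Steap3, a ferrireductase, by 1.57 (edgeR adjusted p = 0.0188), and the sulfatase Sulf2 by 3.00 (edgeR adjusted p = 0.0263). The median of the list was 0.01, as over all genes. Steap3 was lost without P28 WT library 1, 2 or 3 or RLT Vav Txp library 1 (edgeR adjusted p = 0.0531 to 0.126), and Sulf2 without any of the P28 WT libraries or RLT Vav Txp library 1 or 3 (0.0503 to 0.0947) or with no filter (0.0943). Against P28 E10.5-induced cells 4 rose and 4 fell (24.2% of the list), beside 17.9% of all genes called. The balance moved with the scaling, to 6 higher and 1 lower on plain library totals and 5 and 3 with RLE factors. Plk2 rose by 3.85 (edgeR adjusted p = 0.000106), the ribosomal protein Rps27l by 1.38 (edgeR adjusted p = 0.0129) and the death receptor Fas by 2.79 (edgeR adjusted p = 0.0272), while Xpc fell by 1.30, from 264 ± 22.1 to 107 ± 28.1 CPM (edgeR adjusted p = 5.6e-05). Fas was lost without P28 E10.5-induced library 1, 3 or 4 or RLT Vav Txp library 2 or 3 (edgeR adjusted p = 0.0544 to 0.0869).

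Against P28 P0-induced cells, 4 targets were higher and 2 lower in RLT Vav Txp (18.2% of the list, beside 11.7% of all genes called). Plk2 rose by 4.21 (edgeR adjusted p = 6.56e-05), Rps27l by 1.42 (edgeR adjusted p = 0.0151) and Sulf2 by 3.00 (edgeR adjusted p = 0.0153), and Xpc fell by 1.12 (edgeR adjusted p = 0.000377). Rps27l was lost without P28 P0-induced library 3 (edgeR adjusted p = 0.0568) or RLT Vav Txp library 3 (0.0507) or 4 (0.0585), and Sulf2 without P28 P0-induced library 1 (0.0542) or 2 (0.0626) or with no filter (0.0506). The macrophage, erythroid, neutrophil and mast cell markers given above were higher in the same libraries.

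The regulators called in RLT Vav Txp all fell. Against P28 WT 1 of 16 fell, beside 1.48% of all genes called lower: Crebbp, the CBP acetyltransferase, by 0.82 (edgeR adjusted p = 0.017). Against P28 P0-induced cells 2 of 16 fell, beside 4.9% of all genes called lower: Crebbp by 1.05 (edgeR adjusted p = 0.00154) and Ep300 by 0.87 (edgeR adjusted p = 0.0153). Against P28 E10.5-induced cells 4 of 16 fell, beside 17.9% of all genes called and 9.38% called lower: Ep300 by 0.95 (edgeR adjusted p = 0.0063), Crebbp by 0.75 (edgeR adjusted p = 0.0121), the p53 ligase Cop1 by 0.54 (edgeR adjusted p = 0.0147) and Usp7 by 0.69 (edgeR adjusted p = 0.0329). Against P28 WT, Crebbp was lost without P28 WT library 1 or RLT Vav Txp library 2, 3 or 4 (edgeR adjusted p = 0.0531 to 0.0846). Against P28 E10.5-induced cells, Crebbp and Cop1 were lost without RLT Vav Txp library 3 or 4 (0.0576 to 0.0753), and Usp7 without P28 E10.5-induced library 2, 3 or 4 or RLT Vav Txp library 2, 3 or 4 (0.0597 to 0.117). With no filter Cop1 (0.0752) and Usp7 (0.065) were lost, and Usp7 also on plain totals (0.053) and in the fit of the compared groups alone (0.0609). Against P28 P0-induced cells, Ep300 was lost without RLT Vav Txp library 2 (0.0571) or 3 (0.0607).

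In WT, 2 targets rose and 3 fell from P0 to P28 (15.2% of the list, beside 7.68% of all genes called): Plk2 fell by 3.28 (edgeR adjusted p = 0.000709), Ddit4 by 1.36 (edgeR adjusted p = 0.00568) and the stress gene Gadd45a by 1.36 (edgeR adjusted p = 0.024), and Xpc rose by 0.70 (edgeR adjusted p = 0.02). In ME induced at E10.5, 5 rose and 3 fell (24.2%, beside 18.2% of all genes called). Plk2 fell by 3.60 (edgeR adjusted p = 0.000152) and Gadd45a by 1.54 (edgeR adjusted p = 0.00545), while Xpc rose by 0.84 (edgeR adjusted p = 0.00274) and the spindle gene Psrc1 by 0.97 (edgeR adjusted p = 0.00778). In WT, Xpc and Gadd45a were lost without P0 WT library 2 or 4 or P28 WT library 3 or 4 (edgeR adjusted p = 0.0548 to 0.0908). They were also lost in the fit of the compared groups alone (0.131 and 0.102), and Ddit4 with limma (adjusted p = 0.0701). Of the regulators, 0 of 16 were called in WT by edgeR, DESeq2 or limma, beside 1771, 2759 and 1286 of all 23059 genes. In edgeR 1 of the 16 had an unadjusted p under 0.05. In ME 3 rose: Atm by 1.49 (edgeR adjusted p = 0.0012), the checkpoint kinase Chek1 by 0.87 (edgeR adjusted p = 0.00841) and the p53 kinase Trp53rka by 0.58 (edgeR adjusted p = 0.028), the last lost without P0 ME library 2 or P28 E10.5-induced library 2, 3 or 4 (0.0526 to 0.104), with RLE factors (0.0509) or with no filter (0.0748). Without the P0 libraries numbered 1, all 11 calls named here for WT and ME held, with 2 targets higher and 4 lower in WT, 6 higher and 5 lower in ME, and 4 regulators higher in ME.

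In the remaining comparisons neither list had a call in edgeR. For P0 ME against P0 WT, 3 of 33 targets and 4 of 16 regulators had an unadjusted p under 0.05, beside 14.1% of all genes. DESeq2 called 3 and 2, and limma 0 of each, beside 802 and 16 of all 23059 genes. For P28 P0-induced against P28 E10.5-induced cells, 1 target and 1 regulator had an unadjusted p under 0.05, beside 4.33% of all genes. DESeq2 called 0 of each, and limma 3 and 2, beside 92 and 2326 of all 23059 genes. For the ME effect at P28 minus that at P0, 5 targets and 5 regulators had an unadjusted p under 0.05, beside 16.5% of all genes. Both other tools called 0 of each, beside 782 of all 23059 genes in DESeq2 and 644 in limma.

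Across the 24 libraries, the genes whose log2 CPM followed Trp53 most closely, among the 9391 genes whose log2 CPM averaged 3 or more, were Psip1 (Pearson r 0.910), Nudc (0.906) and Vrk3 (0.902). Those closest to Mdm2 were Tbk1 (0.759), Itgam (0.749) and Ciao1 (0.744), and those closest to Cdkn1a were Ralb (0.827) and the histone genes H2bc4 (0.810) and H1f2 (0.799). Ccng1 was followed by Dctn2 (0.790), Pdlim5 (0.787) and Ptcd3 (0.782). The nearest genes of the most abundant member were thus closer to it than those of the other 3 members to theirs. The points share libraries, groups and depth, so these values describe the 24 libraries and carry no test.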

How the data were processed

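Total RNA of sorted progenitors was made into libraries with a Clontech kit, per the labels' protocols. Reads were aligned to GRCm38 with STAR 2.7.9a and counted with featureCounts 2.0.3 (Subread), per the submitters' processing notes. The values used are the raw counts per gene that the authors deposited, 1 table for all 24 libraries. The strand setting and the handling of reads with several matches are not given in the sources used here. Of 55774 entries, 287 repeats of an identifier, all with identical counts, were dropped. Coordinates and exon lengths are from GENCODE M21.

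Genes were kept with edgeR's filterByExpr (minimum count 10), scaled by TMM and fitted with 1 mean for each of the 6 groups (robust quasi-likelihood, edgeR 4.0.16, R 4.3.3, 18 residual degrees of freedom). P-values were adjusted by the Benjamini-Hochberg method over all 23059 genes tested in each comparison, and a gene is called at an adjusted p under 0.05. CPM are counts per 1000000 of the TMM-scaled library total, and log2 CPM use a prior count of 2. Intervals are 95% intervals of the fitted difference. DESeq2 1.42.0, limma 3.58.1 (voom with quality weights), other scalings and filters, fits of the compared groups alone, a replicate block and the removal of each library were the alternatives. The removal of both P0 libraries numbered 1 was added after the data were seen. The fits were tested on simulated counts.

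A fold change is given for each member called, for the member with the lowest p where none was called, and for Trp53 and Cdkn1a against WT. From each pathway list at most 4 called genes per comparison are named, those with the lowest adjusted p. Genes most like a member are the 3 with the highest r. The members and the lists were chosen with earlier results of these data known. Libraries of a group are numbered as in the labels, and RLT Vav Txp libraries by their order of deposit. In the edgeR fit of all 24 libraries, p-values set each difference against the spread between libraries, estimated over all 6 groups together. A marker gene of the stem and progenitor list is not reported here.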

Additional observations from a re-analysis of the deposited data

Results flagged for a closer look

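The RLT Vav Txp and the other P28 ME groups differed from each other, by edgeR's test of the difference itself, in 2 of the 9 genes. Phlda3 was called against both groups, and Trp53 only against P28 E10.5-induced cells. Beside these calls stand 17.9% of all genes called against P28 E10.5-induced cells and 11.7% against P28 P0-induced cells. The difference of Trp53 between RLT Vav Txp and P28 E10.5-induced cells was -0.66 on the log2 scale (edgeR adjusted p = 0.016, 220.4 ± 76.1 against 348 ± 35.2 CPM, SD, n = 4), with 3 of 4 RLT Vav Txp libraries below all 4 of the other group. This call held in 4 of 8 fits with 1 library left out. Against P28 P0-induced cells Trp53 did not pass (edgeR adjusted p = 0.0762). The Phlda3 difference was -1.56 against P28 E10.5-induced cells (edgeR adjusted p = 4.16e-05) and -1.50 against P28 P0-induced cells (edgeR adjusted p = 8.32e-05), with 4 of 4 RLT Vav Txp libraries below every library of both groups. Summed LSK markers were also lower in RLT Vav Txp, at 1372 to 2357 CPM, and their part in these differences was not tested. Dixon's criterion flagged no library in 54 checks of the 9 genes in the 6 groups. It also passed over P0 ME library 2 for Cdkn1a, at 43.4 CPM against 5.31 to 12.0 CPM in the rest of its group. Without that library the Cdkn1a difference between P28 E10.5-induced and P0 ME cells was -0.35. With 4 libraries a group, the lack of flags therefore does not show that no single library decided a result.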

How the results depend on the processing

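The number of the 9 genes called moved by over 1.5 times under these alternatives, with edgeR on all libraries, TMM and the low-count filter as the reference. For P0 ME against WT it was 0 and DESeq2 gave 1, beside 148 and 802 of all 23059 genes. For P28 E10.5-induced against WT it was 1, and 3 with limma, 0 with no filter, 2 in the fit of the groups compared alone, and 0 to 1 with 1 library left out. Calls over all genes there were 2827 of 23059, and 6492 with limma, 1767 of 41240 with no filter and 6296 of 18491 with the compared groups alone. For P28 P0-induced against WT, 0 of the 9 were called, and 4 with limma and 3 with the compared groups alone. Calls over all genes there were 362 of 23059, and 4998 with limma and 5196 of 18601 with the compared groups alone. For RLT Vav Txp against WT, 1 of the 9 was called (2 with the compared groups alone), beside 950 of 23059 genes (1193 of 19173). Against P28 E10.5-induced cells 2 were called (4 with limma, 5 with the compared groups alone, 1 to 2 with 1 library left out). Calls over all genes there were 4122 of 23059, and 8053 with limma and 5946 of 18808 with the compared groups alone. Against P28 P0-induced cells 1 of the 9 was called (2 with plain library totals, 3 with limma, 2 with the compared groups alone, 1 to 2 with 1 library left out). Calls over all genes there were 2687 of 23059, and 2951 with plain totals, 7401 with limma and 5153 of 18722 with the compared groups alone. For P28 against P0 in WT, 2 of the 9 were called, and 1 with plain totals, limma, no filter or the compared groups alone, and 0 to 2 with 1 library left out. Calls over all genes there were 1771 of 23059, and 1668, 1286, 1246 of 41240 and 481 of 19225 in these settings. In ME, 3 of the 9 were called, with 2 to 3 when 1 library was left out. For the difference of ME effects 0 of the 9 were called, and 1 with DESeq2 or limma, and 0 to 1 with 1 library left out. Calls over all genes there were 166 of 23059, and 782 with DESeq2 and 644 with limma.

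The labels do not say that a shared number marks a litter or a day. Over 40 pairs of same-numbered libraries from different groups, the correlation of their deviations from the group means ran from -0.394 to 0.66 (median 0.0295), with 14 above 0.1. Over 120 pairs of different numbers it ran from -0.49 to 0.402 (median -0.0203), with 31 above 0.1. Between P0 WT and P0 ME it was 0.66, 0.0531, 0.371 and 0.464 for numbers 1 to 4. Of 20 libraries, 8 correlated best with their own number. As not every pair exceeded 0.1, the libraries were not treated as paired. This rule covers all numbered groups at once and cannot tell whether P0 WT and P0 ME were paired with each other. No fit blocked those P0 groups alone. With a replicate block on the 20 numbered libraries 1 of the 9 was called for the difference of ME effects, as without the block on the same 20, where P28 E10.5-induced against WT gave 2. For that comparison the block gave 1, Trp53 (adjusted p = 0.0248) and no longer Zmat3 (0.0542), and in ME from P0 to P28 it gave 2.

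The sign of Cdkn1a against WT was not stable where it was not called. At P0 it was 0.28 without both P0 libraries numbered 1 and ran from -1.06 to 0.20 with 1 library left out. For P28 E10.5-induced it was -0.0136 on plain totals and ran from -0.00432 to 0.32, and for P28 P0-induced from -0.28 to 0.0706. Of 519 values of single genes under other settings, 472 kept their direction and side of the threshold, as did 389 of 496 with 1 library left out. The pathway lists moved more: called targets went from 5 to between 3 and 10 for P28 E10.5-induced against WT, from 0 to at most 9 for P28 P0-induced, from 8 to between 5 and 15 for RLT Vav Txp against P28 E10.5-induced, and called regulators from 5 to between 3 and 9, from 1 to between 0 and 6, and from 4 to between 2 and 11. The median over all genes moved from -0.10 to -0.23 for P28 E10.5-induced against WT, and from -0.04 to -0.24 for the difference of ME effects, with plain totals in place of TMM. The number of all genes called also moved with the setting, as given above. The causes were not tested. Zmat3 and Cdkn1a, at a few CPM, have the widest standard errors of the 9 genes.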
